A study of Mus musculus with 24 samples.

Results

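The interferon response genes *Stat2*, *Irf1*, *Irf7*, *Irf9*, *Isg15*, *Ifit1*, *Ifit3*, *Bst2* and *Ifih1* were followed across FAK inhibitors and FAK degraders in a murine *Nf2*-deficient Schwann cell line. These 9 genes were found in a table of 49315 genes by exact match of the symbol, which gave 1 row for each. RNA was sequenced from MS03 cells, an immortalized Schwann line obtained by infecting cells of an *Nf2* flox/flox mouse with Cre, and all 24 libraries, DMSO included, carry the Nf2-/- genotype. MS03 is 1 line, and no library came from cells with intact *Nf2* or from cells given an interferon. Cells were exposed for 24 hours to DMSO, to the FAK kinase inhibitors defactinib, VS-4718, GSK2256098 or IN10018 (ifebemtinib) at 1 μM, to PROTAC FAK degrader 1 (PROTAC-3) at 1 μM, or to the degraders GSK215 or BSJ-04-0146 at 0.1 μM. Each of the 8 groups held 3 libraries labelled as biological replicates. FAK, encoded by *Ptk2*, is a kinase of focal adhesions, and a PROTAC joins a ligand of its target to a ligand of an E3 ubiquitin ligase, so that the target protein is degraded.

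Interferons bind receptors whose Janus kinases phosphorylate STAT proteins. STAT2 and IRF9 belong to the complex ISGF3, which binds the interferon-stimulated response element (ISRE) in front of antiviral genes, whereas STAT dimers bind the gamma-activated site (GAS). IRF1 and IRF7 are transcription factors that are themselves induced and that maintain or amplify the response, and Schwann cells, the glia of peripheral nerve, are among the cells able to respond to interferon.

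The promoter windows of the members are shown because they hold the elements through which the pathway is known to act. Windows reached from 250 bases before to 50 bases after each RefSeq start site (GRCm38.p6), and all 9 members were matched by symbol. The ISRE core was searched as GAAANNGAAA on both strands and was present in the windows of *Stat2*, *Isg15*, *Ifit1*, *Ifit3*, *Bst2* and *Ifih1*, 6 of 9 members, against 3.99% of 27025 genes with a window. The GAS, TTCNNNGAA on either strand, was present at *Irf1* and *Bst2*, 2 of 9 members, against 9.55% of those genes. *Irf7* and *Irf9* held neither string in these windows, which says nothing of more distant or degenerate elements. The stretches below are written in the direction of transcription, with the matched bases in capitals, the ISRE for all but *Irf1*, where the GAS is shown. Matches overlap in *Isg15*, which held 3, and in *Bst2*, which held 2, and the 2 matches each of *Ifit1* and *Ifit3* are separate.
*Stat2* (chr10:128270266-128270295, plus strand): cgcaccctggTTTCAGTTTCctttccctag
*Irf1* (chr11:53769914-53769942, plus strand): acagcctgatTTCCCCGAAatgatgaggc
*Isg15* (chr4:156200865-156200906, minus strand): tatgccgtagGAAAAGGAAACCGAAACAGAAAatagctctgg
*Ifit1* (chr19:34640775-34640823, plus strand): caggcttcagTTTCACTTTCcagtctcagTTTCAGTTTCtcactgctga
*Ifit3* (chr19:34583363-34583426, plus strand): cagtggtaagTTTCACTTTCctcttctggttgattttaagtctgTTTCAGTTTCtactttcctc
*Bst2* (chr8:71537577-71537612, minus strand): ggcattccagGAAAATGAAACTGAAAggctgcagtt
*Ifih1* (chr2:62646206-62646233, minus strand): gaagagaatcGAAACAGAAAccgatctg
Unlike the other matches, that of *Ifih1* lies after the start site. A match of letters is a description of the sequence, and occupancy was not measured.

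Total counts ranged from 14472462 to 21588406 in the PROTAC libraries and from 21654444 to 27449516 in the others, so that low genes were counted less precisely with the PROTACs. Of the Schwann cell markers, *Sox10* had 238 to 2080 counts per library, whereas *S100b* and *Gap43* had at most 18. The summed level of the 8 Schwann cell markers was 54.9 to 58.2 CPM (counts scaled to library size) with DMSO, 57.4 to 59.7 CPM with IN10018, 75.6 to 80.2 CPM with GSK2256098, 75.5 to 84.2 CPM with defactinib, 113 to 129 CPM with VS-4718, 206 to 226 CPM with BSJ-04-0146 and 227 to 238 CPM with GSK215, but 49.4 to 56 CPM with PROTAC FAK degrader 1. By edgeR, *Sox10* rose by 2.28 on the log2 scale with GSK215 as well as BSJ-04-0146 (adjusted p = 5.26e-28 and 5.35e-28) and fell with PROTAC FAK degrader 1 (−0.73, 1.18e-09), with which *Ngfr* also fell (−1.09, 2.23e-12) whereas *Erbb3* (0.63, 3.14e-05) and *Foxd3* (0.50, 1.08e-07) rose. The 7 macrophage markers summed to 3.89 to 4.14 CPM with DMSO, 3.83 to 5.32 CPM with defactinib, GSK2256098 and IN10018, 5.36 to 6.21 CPM with VS-4718, 6.46 to 8.08 CPM with GSK215, 7.9 to 9.39 CPM with BSJ-04-0146 and 11.3 to 12 CPM with PROTAC FAK degrader 1. Most of this sum was *Cd68*, a lysosomal protein with 65 to 239 counts per library, which was called higher with these last 4 drugs (0.42, 0.82, 1.17 and 1.70 on the log2 scale). Of the other 6, *Csf1r* had 3 to 20 counts and rose with BSJ-04-0146 (1.11, edgeR adjusted p = 0.0142), *Aif1* had 2 to 10 counts, *Lyz2* at most 5, and the leukocyte-defining *Ptprc*, *Adgre1* and *Itgam* at most 1. The plasmacytoid dendritic, lymphocyte and endothelial lists summed to at most 0.581, 0.105 and 0.57 CPM in any library. Among fibroblast markers, *Col1a1* had at least 5363 counts in every library, whereas *Lum* had none. *Col1a1* fell with PROTAC FAK degrader 1 (−0.45) and BSJ-04-0146 (−0.18) and rose by 0.17 to 0.27 with defactinib, VS-4718, GSK2256098 and GSK215. *Pdgfra* rose by 1.09 and 1.07 with GSK215 and BSJ-04-0146 (edgeR adjusted p = 6.09e-16 and 1.23e-15) and fell with PROTAC FAK degrader 1 (−0.50, 2.97e-06). The part of these markers in the levels of the members was not tested. In bulk RNA, fewer cells that express a gene and less RNA per cell cannot be told apart. *Ptk2* mRNA was 95.3 ± 2.4 CPM with DMSO and 77.9 ± 0.644 and 79.7 ± 1.49 CPM with GSK215 and BSJ-04-0146 (SD, n = 3), whereas it was 97.7 ± 3.5 CPM with PROTAC FAK degrader 1 and had means of 84.3 to 90.7 CPM with the kinase inhibitors.

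Per kilobase of the longest coding transcript, the DMSO levels of the members spanned a wide range. *Bst2* was the most abundant at 124 ± 3.58 CPM per kb, followed by *Irf1* at 23.6 ± 0.335, *Isg15* at 6.99 ± 0.784, *Irf9* at 3.15 ± 0.199 and *Stat2* at 2.42 ± 0.0786 CPM per kb (SD, n = 3). *Ifih1* and *Ifit1* were lower, at 0.826 ± 0.109 and 0.567 ± 0.0769 CPM per kb. At the bottom, *Ifit3* (0.156 ± 0.115) and *Irf7* (0.133 ± 0.0279) had overlapping ranges, and every other pair of neighbours in this order was separated.

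**Figure D1:**
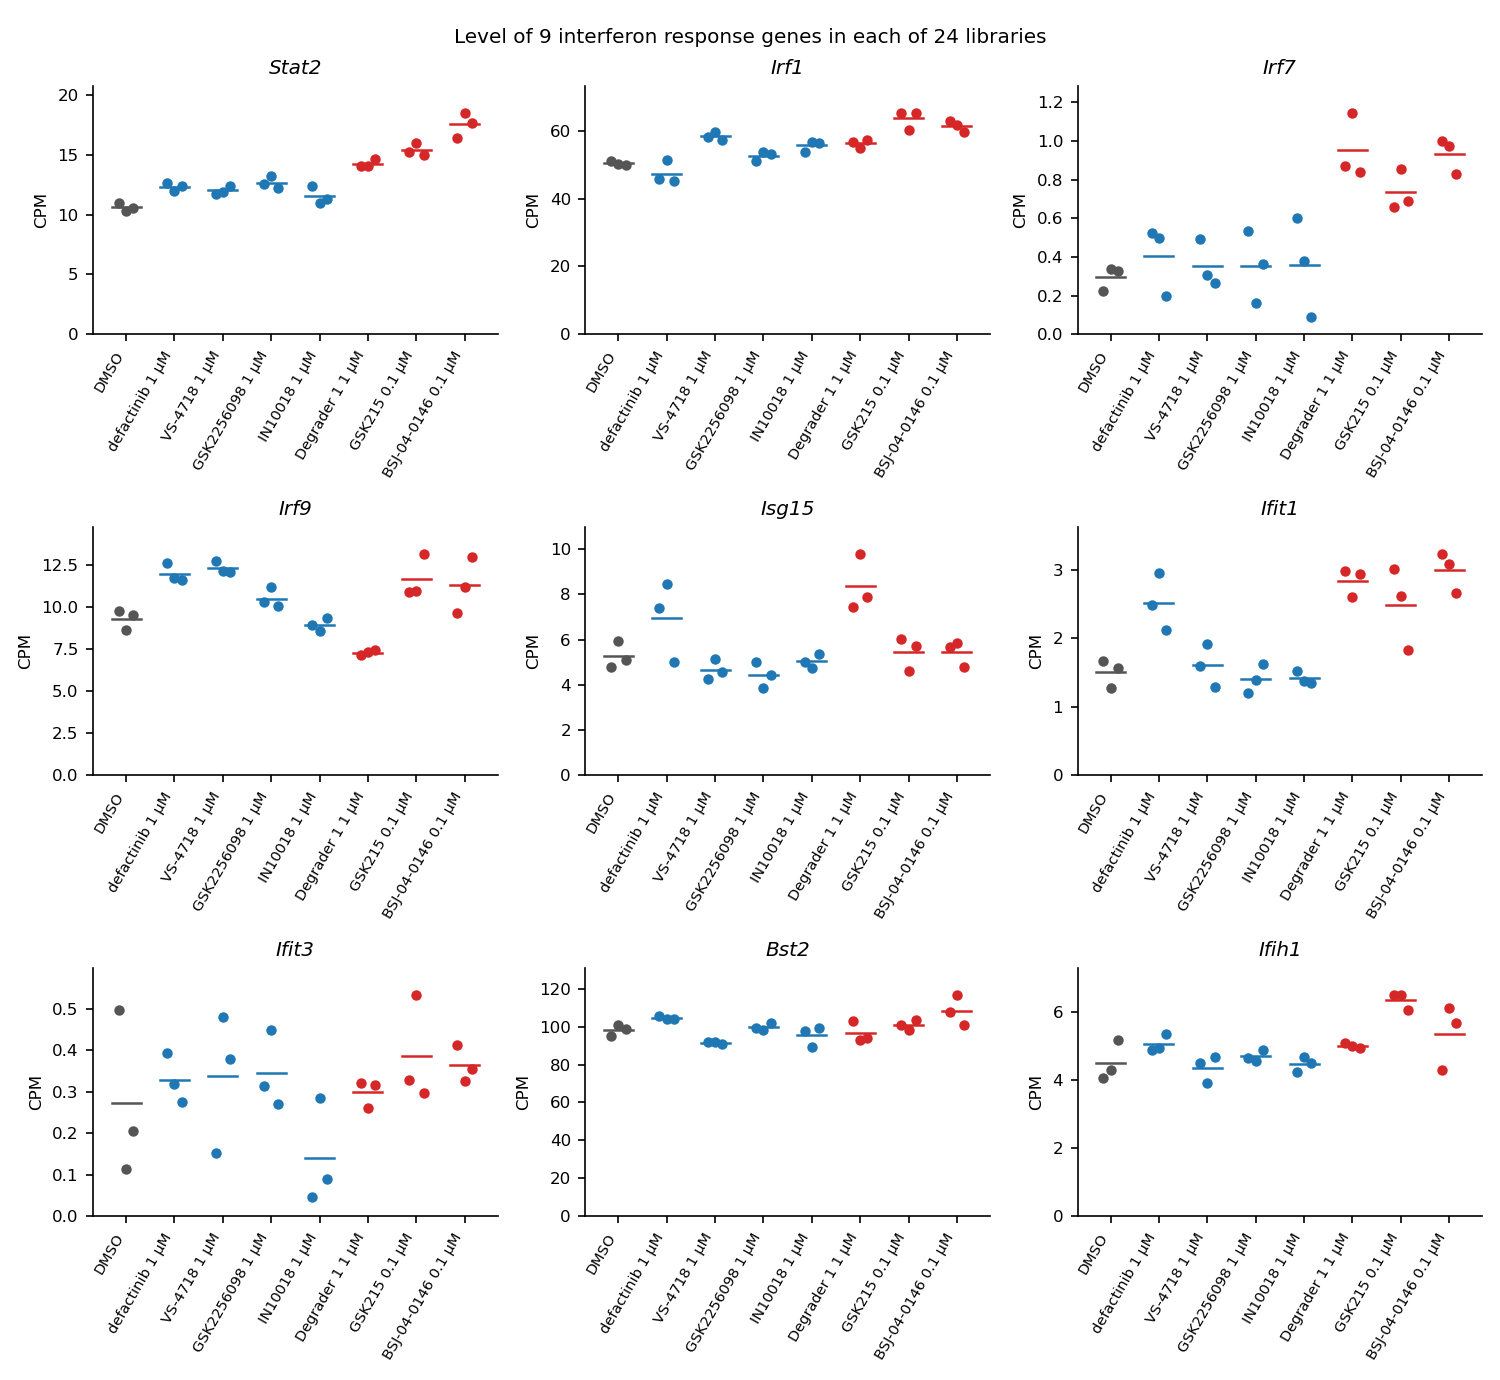
Level of each member in CPM (vertical axis from 0, its scale differing between panels) for each library (points) and the mean of 3 (lines), with DMSO in grey, kinase inhibitors in blue and PROTACs in red. *Stat2* and *Irf7* were above DMSO in every PROTAC library, whereas all 3 libraries of PROTAC FAK degrader 1 were below DMSO for *Irf9*.

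Each drug was compared with the same 3 DMSO libraries in edgeR's quasi-likelihood test, and a gene was called when its Benjamini-Hochberg adjusted p over all 16070 genes tested was below 0.05. Over the 63 combinations of 9 members and 7 drugs, 26 were called higher, 1 was called lower and 36 were not called. With GSK215, 6 of 9 members rose (*Stat2*, *Irf1*, *Irf7*, *Irf9*, *Ifit1* and *Ifih1*), in a comparison in which 27.4% of all genes tested rose and 27.2% fell. BSJ-04-0146 also raised 6 of 9 (*Stat2*, *Irf1*, *Irf7*, *Irf9*, *Ifit1* and *Bst2*), against 27.7% of all genes higher and 26.9% lower. PROTAC FAK degrader 1 raised 5 of 9 (*Stat2*, *Irf1*, *Irf7*, *Isg15* and *Ifit1*) and lowered *Irf9*, against 34.1% of all genes higher and 32.7% lower.

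With the kinase inhibitors, 1 to 4 of 9 members were called, all of them higher. Defactinib raised 4 of 9 (*Stat2*, *Irf9*, *Isg15* and *Ifit1*), where 11.4% of all genes rose and 11.0% fell. VS-4718 raised 3 of 9 (*Stat2*, *Irf1* and *Irf9*), where 20.4% of all genes rose and 18.9% fell. GSK2256098 raised *Stat2* alone, where 6.36% of genes rose and 6.09% fell, and IN10018 raised *Irf1* alone, where 6.44% rose and 6.85% fell, so that 1 member of 9 is near the background for either drug. The median log2 fold change of the members was 0.49 with GSK215, 0.29 with BSJ-04-0146, 0.19 with PROTAC FAK degrader 1, 0.31 with defactinib, 0.18 with VS-4718, 0.065 with GSK2256098 and −0.041 with IN10018. With defactinib and PROTAC FAK degrader 1 the median is the value of *Ifit3*, a gene too low to judge, so the order of these 2 medians is not informative. The median over all genes tested was between −0.0044 and 0.021 in these comparisons.

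**Figure D2:**
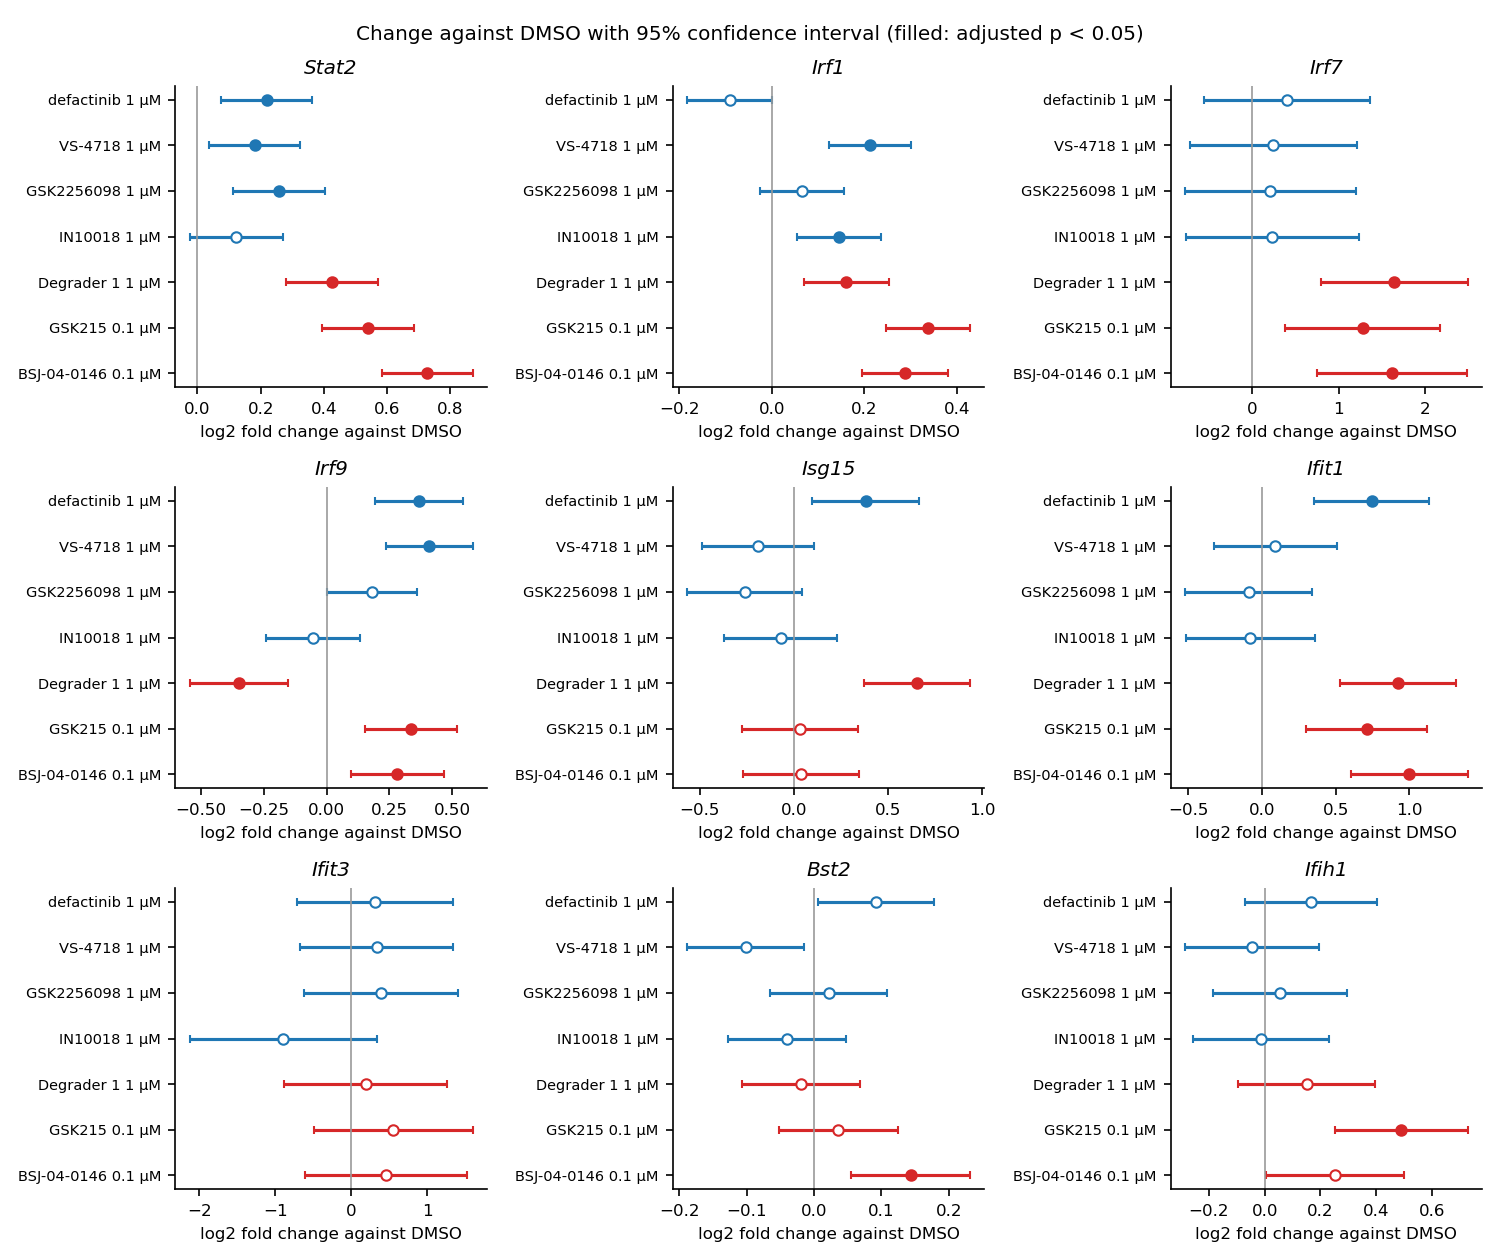
Log2 fold change of each member against DMSO (horizontal axis) for the 7 drugs, with 95% confidence intervals from the quasi-likelihood fit and filled points where the adjusted p was below 0.05. The intervals of *Irf7* and *Ifit3* are the widest, and the single filled point left of 0 is *Irf9* with PROTAC FAK degrader 1.

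*Ifih1* encodes MDA5, the cytosolic sensor of long dsRNA, and lies on chromosome 2 from 62595798 to 62646255 on the minus strand (GENCODE M21, GRCm38, as for all genes here). It had 4.07, 4.29 and 5.19 CPM with DMSO and 6.50, 6.52 and 6.07 CPM with GSK215. All GSK215 libraries were above all DMSO libraries, and the log2 fold change was 0.49 (SE 0.12, edgeR adjusted p = 0.000514). With BSJ-04-0146 the libraries had 4.30, 6.13 and 5.67 CPM, and replicate 1 lay among the DMSO libraries. That difference of 0.25 (SE 0.12) had an edgeR adjusted p of 0.0801, which became 0.0105 without replicate 1 of BSJ-04-0146 (log2 fold change 0.38), 0.0241 without DMSO replicate 3 (0.36) and 0.0119 with library totals in place of TMM (0.36). The group means of the other 5 drugs were between 4.37 and 5.07 CPM, with overlapping libraries in each comparison with DMSO.

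Of the transcription factors, *Stat2*, the STAT of the type I response and of ISGF3, was called with the most drugs, 6 of 7. It lies on chromosome 10 from 128270559 to 128292849 on the plus strand. DMSO libraries had 11.0, 10.3 and 10.6 CPM. The PROTAC libraries were all above these, with 14.1, 14.1 and 14.7 CPM for PROTAC FAK degrader 1, 15.2, 16.0 and 15.0 CPM for GSK215, and 16.4, 18.5 and 17.7 CPM for BSJ-04-0146. Log2 fold changes were 0.43 (SE 0.072, edgeR adjusted p = 1.88e-06), 0.54 (SE 0.072, 3.3e-08) and 0.73 (SE 0.071, 1.81e-11), respectively.

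Of the kinase inhibitors, 3 raised *Stat2*. Levels were 12.7, 12.0 and 12.4 CPM with defactinib, 11.7, 11.9 and 12.4 CPM with VS-4718, and 12.6, 13.2 and 12.2 CPM with GSK2256098, each above all DMSO libraries. The log2 fold changes were 0.22 (SE 0.071, edgeR adjusted p = 0.0227), 0.18 (SE 0.071, 0.04) and 0.26 (SE 0.071, 0.0123). IN10018 gave 12.4, 11.0 and 11.3 CPM and 0.12 (95% interval −0.025 to 0.27, edgeR adjusted p = 0.297). The call with VS-4718 was lost without any of the 6 libraries in turn (log2 fold change 0.14 to 0.19), and that with defactinib without DMSO replicate 2 or 3 or defactinib replicate 1 or 3 (0.20 to 0.22). The call with GSK2256098 was lost without DMSO replicate 2 (0.23) or GSK2256098 replicate 2 (0.22). The calls with defactinib and VS-4718 were also lost with DESeq2 (adjusted p = 0.0581 and 0.113) and with no filter (0.108 and 0.174), the latter setting ending that with GSK2256098 too (0.0567), and the VS-4718 call in limma on log2(CPM + 4) (0.0626) and with its 6 libraries alone (0.0839).

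*Irf9*, the DNA-binding partner of the STATs in ISGF3, moved in both directions. The gene lies on chromosome 14 from 55603571 to 55610030 on the plus strand and shares 123 exon bases with *Rnf31*. DMSO libraries had 9.77, 8.65 and 9.52 CPM. Levels were higher with defactinib (12.6, 11.7 and 11.6 CPM) and VS-4718 (12.7, 12.1 and 12.1 CPM) and lower with PROTAC FAK degrader 1 (7.12, 7.30 and 7.46 CPM), with no overlap with DMSO. The log2 fold changes were 0.37 (SE 0.087, edgeR adjusted p = 0.00169) for defactinib, 0.41 (SE 0.085, 0.000159) for VS-4718 and −0.35 (SE 0.097, 0.00172) for PROTAC FAK degrader 1. *Irf9* with PROTAC FAK degrader 1 was the only member called lower against DMSO, and these 3 calls held in every fit that left out 1 library.

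With the other degraders *Irf9* went up, to 10.9, 11.0 and 13.2 CPM with GSK215 and to 9.67, 11.2 and 13.0 CPM with BSJ-04-0146. Replicate 1 of BSJ-04-0146 lay below the highest DMSO library. The log2 fold changes were 0.34 (SE 0.091, edgeR adjusted p = 0.00168) and 0.28 (SE 0.092, 0.00886). Without GSK215 replicate 3 the first was 0.23 (0.0529), and without BSJ-04-0146 replicate 3 or DMSO replicate 2 the second was 0.17 (0.162) or 0.23 (0.0638). GSK2256098 (10.5 ± 0.580 CPM) and IN10018 (8.94 ± 0.386 CPM) were not called (SD, n = 3).

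*Irf1* is an interferon-γ-induced factor that acts on its own at ISRE-like elements. It lies on chromosome 11 from 53770014 to 53778374 on the plus strand and shares 135 exon bases with the antisense gene *Gm17334*. Levels were 51.2, 50.2 and 49.8 CPM with DMSO, 65.4, 60.3 and 65.4 CPM with GSK215, and 63.1, 61.9 and 59.6 CPM with BSJ-04-0146. Those of VS-4718 (58.3, 59.6 and 57.3 CPM), PROTAC FAK degrader 1 (56.8, 54.9 and 57.2 CPM) and IN10018 (53.7, 56.8 and 56.5 CPM) were also above that of DMSO, and in all 5 groups every library exceeded every DMSO library.

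The changes of *Irf1* were modest. Log2 fold changes were 0.34 (SE 0.045, edgeR adjusted p = 3.69e-08) with GSK215, 0.29 (SE 0.046, 1.01e-06) with BSJ-04-0146, 0.21 (SE 0.044, 0.000133) with VS-4718, 0.16 (SE 0.045, 0.00198) with PROTAC FAK degrader 1 and 0.14 (SE 0.045, 0.0265) with IN10018. The call with IN10018 was lost without DMSO replicate 2 (0.14) or 3 (0.13) and without IN10018 replicate 2 or 3 (0.13 for each). Defactinib was the only drug with a mean below that of DMSO, at 45.7, 51.4 and 45.1 CPM. Replicate 2 exceeded all DMSO libraries, the log2 fold change was −0.091 (edgeR adjusted p = 0.157), and without that library it was −0.15 (0.0173).

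*Irf7*, which drives the late wave of type I interferon production, was near the limit of counting. It lies on chromosome 7 from 141262706 to 141266481 on the minus strand, shares 45 exon bases with *Phrf1*, and had 2 to 22 counts per library. Counts were 5, 9 and 8 with DMSO (0.226, 0.338 and 0.330 CPM). PROTAC FAK degrader 1 gave 19, 22 and 16 counts (0.873, 1.15 and 0.840 CPM), GSK215 gave 10, 16 and 14 counts (0.657, 0.855 and 0.691 CPM), and BSJ-04-0146 gave 17, 18 and 14 counts (1.00, 0.976 and 0.827 CPM). All 9 PROTAC libraries thus exceeded all DMSO libraries in CPM. The minimum of the filter on low counts was reached in 14 of the 24 libraries, those of the PROTACs included but not those of DMSO. In fits of 6 libraries, the filter kept *Irf7* with each PROTAC and removed it with each kinase inhibitor.

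For *Irf7*, log2 fold changes were 1.64 (SE 0.42, edgeR adjusted p = 0.000721) with PROTAC FAK degrader 1, 1.28 (SE 0.44, 0.014) with GSK215 and 1.62 (SE 0.43, 0.00143) with BSJ-04-0146. The call with GSK215 was lost without DMSO replicate 1 (1.13, 0.0542) or GSK215 replicate 2 (1.15, 0.0591). The kinase inhibitor libraries had 2 to 13 counts and fold changes of 0.21 to 0.41 on the log2 scale, with 95% intervals that reached from −0.78 with GSK2256098 to 1.36 with defactinib, so that changes within these bounds are not excluded. Pooled over 3 libraries, DMSO held 22 counts (0.291 CPM, exact 95% Poisson interval 0.183 to 0.441), and the lower bounds of the 3 PROTACs, 0.736, 0.554 and 0.721 CPM, lay above the upper bound for DMSO. These intervals cover counting error only and use library totals without TMM scaling.

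**Figure D3:**
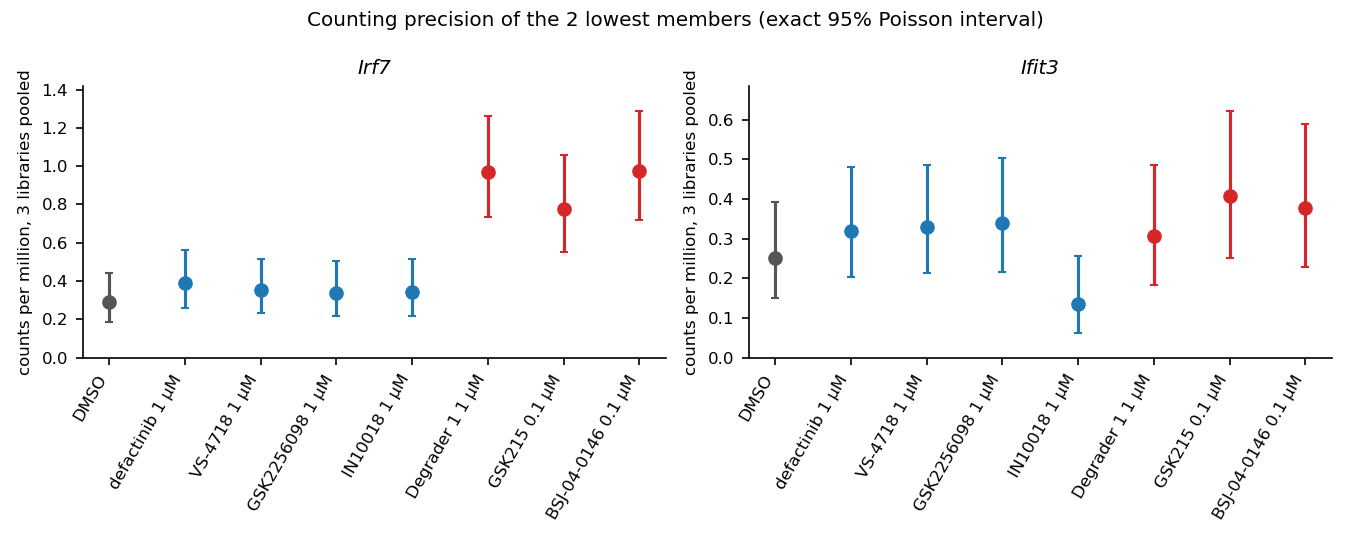
CPM of *Irf7* and *Ifit3*, pooled over the 3 libraries of a group (points), with exact 95% Poisson intervals for counting error. Library totals without TMM scaling were used here. For *Irf7* the PROTAC intervals lie above that of DMSO, whereas for *Ifit3* every interval overlaps that of DMSO.

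Among the effectors, *Isg15* encodes a ubiquitin-like protein that is conjugated to other proteins. It lies on chromosome 4 from 156199424 to 156200818 on the minus strand. DMSO libraries had 4.79, 5.94 and 5.11 CPM and those of PROTAC FAK degrader 1 had 7.44, 9.81 and 7.88 CPM, with no overlap and a log2 fold change of 0.65 (SE 0.14, edgeR adjusted p = 7.56e-05). Defactinib gave 7.41, 8.46 and 5.00 CPM, where replicate 3 lay inside the DMSO range, and a change of 0.38 (SE 0.14, edgeR adjusted p = 0.0455). That call was lost without DMSO replicate 1 (0.31) or 3 (0.35), without defactinib replicate 1 (0.32) or 2 (0.22), and on the log2(CPM + 4) scale in limma (0.23, adjusted p = 0.0655).

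*Isg15* was not called with GSK215 (6.04, 4.59 and 5.73 CPM) or BSJ-04-0146 (5.66, 5.85 and 4.79 CPM), whose libraries overlapped those of DMSO. The log2 fold changes were 0.034 (95% interval −0.27 to 0.34, edgeR adjusted p = 0.871) and 0.037 (−0.27 to 0.35, 0.859). VS-4718, GSK2256098 and IN10018 had means of 4.66, 4.43 and 5.04 CPM, none of them called. In the order of the 8 group means of *Isg15*, every pair of neighbours overlapped.

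*Ifit1*, whose protein binds RNA that lacks the marks of host mRNA, rose with all 3 PROTACs and with defactinib. It lies on chromosome 19 from 34640871 to 34650009 on the plus strand and had 27 to 65 counts per library. DMSO libraries had 1.67, 1.28 and 1.57 CPM. Higher levels were found with BSJ-04-0146 (3.24, 3.09 and 2.66 CPM), PROTAC FAK degrader 1 (2.99, 2.61 and 2.94 CPM), defactinib (2.49, 2.96 and 2.13 CPM) and GSK215 (3.02, 2.62 and 1.83 CPM), and none of these libraries overlapped with DMSO.

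Log2 fold changes of *Ifit1* were 1.00 (SE 0.20, edgeR adjusted p = 3.67e-05) with BSJ-04-0146, 0.93 (SE 0.19, 6.46e-05) with PROTAC FAK degrader 1, 0.74 (SE 0.19, 0.00416) with defactinib and 0.71 (SE 0.20, 0.00297) with GSK215. All 4 calls held in every fit that left out 1 library and under every other alternative tried. VS-4718, GSK2256098 and IN10018 had means of 1.60, 1.41 and 1.42 CPM and changes of 0.090, −0.091 and −0.080, none of them called. The related genes *Ifit1bl1* and *Ifit1bl2* had at most 4 and 3 counts in any library.

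*Ifit3*, a partner of *Ifit1* on chromosome 19 from 34583531 to 34588731 on the plus strand, was too low to judge. It had 1 to 11 counts per library, passed the filter on low counts through only 3 libraries, and its paralog *Ifit3b* had at most 5 counts. DMSO libraries had 11, 3 and 5 counts (0.498, 0.113 and 0.206 CPM), a range that covered most of the other libraries. GSK215 had the highest group mean, 0.386 ± 0.129 CPM, and IN10018 the lowest, 0.140 ± 0.127 CPM (SD, n = 3). No drug gave a call in edgeR, and the 95% intervals were as wide as −2.13 to 0.34 with IN10018 and −0.49 to 1.59 with GSK215, so that changes of that size can be neither seen nor set aside. The other 8 members were counted well enough for a test in the fit of all 24 libraries, *Irf7* with the widest errors. *Irf7* passed the filter in part through the PROTAC libraries, in which it was high.

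*Bst2* encodes tetherin, a membrane protein that holds budding virus at the cell surface, and lies on chromosome 8 from 71534255 to 71537456 on the minus strand. It was the most abundant member. DMSO libraries had 95.2, 101 and 98.6 CPM, and group means ranged from 91.6 ± 0.526 CPM with VS-4718 to 108 ± 8.10 CPM with BSJ-04-0146 (SD, n = 3). BSJ-04-0146, with 108, 117 and 101 CPM, gave the only call against DMSO, at 0.14 (SE 0.044, edgeR adjusted p = 0.00501), and it was lost without BSJ-04-0146 replicate 2 (0.082, 0.14). This change was 0.12 to 0.25 under the alternatives that kept all libraries of the comparison. The 92.0, 91.8 and 91.0 CPM with VS-4718 lay below all DMSO libraries, and the 106, 104 and 104 CPM with defactinib lay above them. Neither was called, with changes of −0.10 (edgeR adjusted p = 0.0571) and 0.092 (0.124), but both were called in fits of the 6 libraries of the comparison (0.0185 and 0.0398). VS-4718 was also called with no filter (0.0434) and without DMSO replicate 1 (−0.13, 0.0271), and defactinib also with library totals (0.11, 0.0485). With GSK215, *Bst2* changed by 0.036 (0.509) after TMM scaling and by 0.16 (0.00134) with library totals.

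Which compounds differed at a matched dose and time was asked in 3 pairs. VS-4718 and defactinib, both at 1 μM, differed in 4 of 9 members, with *Irf1* higher with VS-4718 and *Isg15*, *Ifit1* and *Bst2* lower, where 18.0% of all genes were higher and 16.0% lower. The differences on the log2 scale were 0.30 (SE 0.044, edgeR adjusted p = 7.84e-07) for *Irf1*, −0.57 (SE 0.14, 0.00148) for *Isg15*, −0.65 (SE 0.19, 0.00641) for *Ifit1* and −0.19 (SE 0.043, 0.000407) for *Bst2*. *Isg15* libraries of this pair overlapped, and those of the other 3 genes did not. The *Ifit1* difference missed the threshold without defactinib replicate 2 (−0.54, 0.0527) or VS-4718 replicate 3 (−0.53, 0.0504). *Stat2* and *Irf9*, which rose with both drugs against DMSO, had differences with 95% intervals of −0.18 to 0.10 and −0.13 to 0.21.

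PROTAC FAK degrader 1 and defactinib, both at 1 μM, differed in 5 of 9 members, in a comparison in which 34.9% of all genes were higher and 34.0% lower with the PROTAC. With 3 of 9 members higher and 2 of 9 lower, neither count is above the background. The PROTAC had more *Irf7* (1.24, SE 0.40, edgeR adjusted p = 0.00649), *Irf1* (0.25, SE 0.046, 7.02e-06) and *Stat2* (0.21, SE 0.070, 0.00917). It had less *Irf9* (−0.72, SE 0.094, 1.2e-08) and *Bst2* (−0.11, SE 0.043, 0.0225). *Irf9* showed the largest contrast of well-counted members, as it was called in opposite directions against DMSO. The *Bst2* difference missed the threshold with library totals (−0.047) and without defactinib replicate 1 (−0.098) or PROTAC replicate 2 or 3 (−0.080 and −0.086), and that of *Irf7* did so without defactinib replicate 3 (0.89, 0.0653).

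For *Isg15* and *Ifit1*, raised by both drugs against DMSO, PROTAC FAK degrader 1 and defactinib had differences of 0.27 (95% interval 0.0023 to 0.55, edgeR adjusted p = 0.068) and 0.18 (−0.18 to 0.55, 0.378). The *Isg15* difference passed the threshold without defactinib replicate 2 (0.44, 0.00723), without PROTAC replicate 1 (0.36, 0.0292) or with library totals (0.34, 0.0252). *Ifih1* had an interval of −0.26 to 0.23.

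GSK215 and BSJ-04-0146, both at 0.1 μM, differed in 1 of 9 members, where 9.88% of all genes were higher and 12.6% lower with GSK215, so that this count is near the background. *Stat2* was lower with GSK215, with no overlap, by −0.19 on the log2 scale (SE 0.070, edgeR adjusted p = 0.0483), and this call was lost with DESeq2 (0.108), library totals (0.0741) and the replicate block (0.0578), as well as in fits without any of the GSK215 libraries or without BSJ-04-0146 replicate 2 or 3 (−0.21 to −0.14). The 95% intervals of the other differences were −0.043 to 0.14 for *Irf1*, −0.13 to 0.24 for *Irf9*, −0.33 to 0.32 for *Isg15*, −0.0063 to 0.48 for *Ifih1* and −0.20 to −0.017 for *Bst2*. Without BSJ-04-0146 replicate 3, *Bst2* passed the threshold (−0.15, 0.0136). *Ifit1* and *Irf7* had wider intervals, −0.68 to 0.098 and −1.13 to 0.44. PROTAC FAK degrader 1 and the kinase inhibitors were used at a 10 times higher dose than these degraders, so their values against DMSO stand side by side with no test between them.

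**Figure D4:**
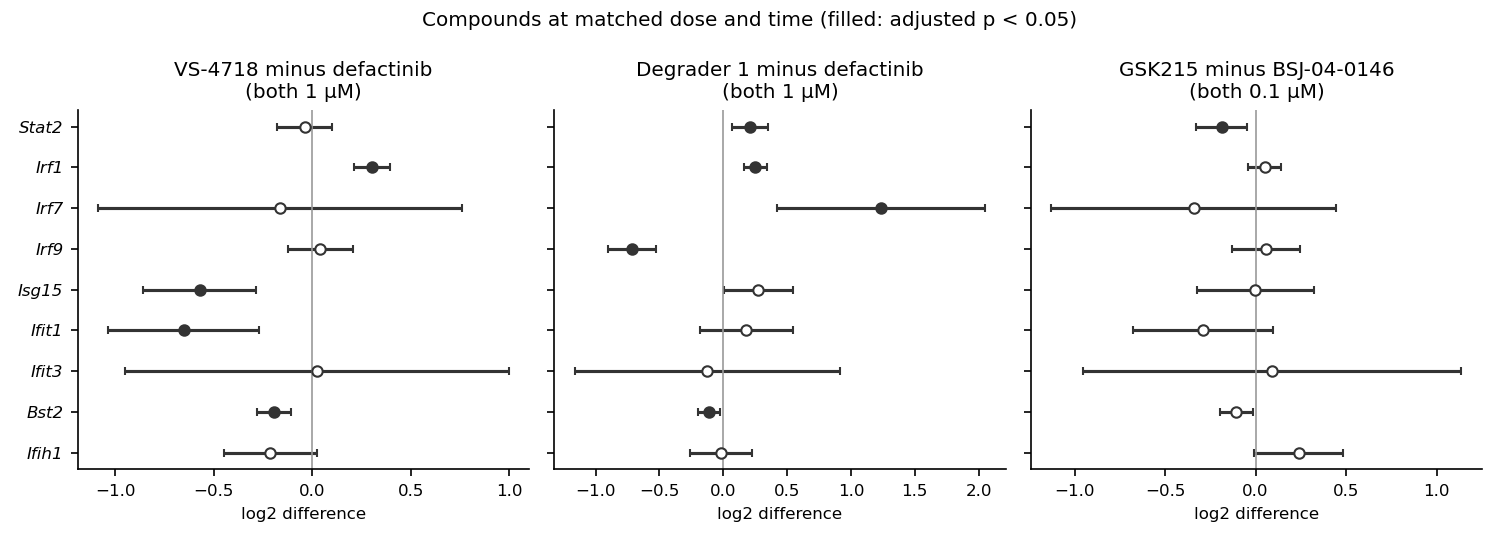
Log2 difference of each member (horizontal axis) between compounds at the same dose after 24 hours, with 95% confidence intervals and filled points where the adjusted p was below 0.05. *Irf9* and *Irf7* stand apart in PROTAC FAK degrader 1 against defactinib, and in GSK215 against BSJ-04-0146 *Stat2* is the only filled point.

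To place the members in their pathway, 90 further genes of interferon signaling in 7 lists were examined, of which 63 were counted well enough for a test. None of the 9 interferon genes listed could be tested, as they had at most 4 counts in any library, with at most 1 for *Ifnb1* and none for *Ifng*. With GSK215, 41 of 63 genes rose and 9 fell (65.1% and 14.3%), and with BSJ-04-0146, 40 rose and 9 fell (63.5% and 14.3%). PROTAC FAK degrader 1 raised 28 and lowered 12 (44.4% and 19.0%), VS-4718 raised 22 and lowered 5 (34.9% and 7.94%), and defactinib raised 12 and lowered 3 (19.0% and 4.76%). GSK2256098 raised 5 and lowered 1, and IN10018 raised 4 and lowered 2. For these 2 drugs the shares called higher, 7.94% and 6.35%, were near those of all genes, 6.36% and 6.44%. Some of the 63, such as *Mx1* and *Zbp1*, passed the filter on low counts through groups in which they were high. Over the 58 genes that averaged 1 CPM or more in the 24 libraries, a limit set after these values were seen, 38 rose with GSK215 (65.5%, beside 30.2% of all 12771 genes at that level), 37 with BSJ-04-0146 (63.8% beside 31%), 26 with PROTAC FAK degrader 1 (44.8% beside 38.7%), 21 with VS-4718 (36.2% beside 24.8%) and 10 with defactinib (17.2% beside 13.9%). That average includes the groups in which a gene was high, so the limit removes such selection only in part. *Uba7* and *Rsad2*, at 0.691 and 0.783 CPM with DMSO, met it through groups in which they were high. Counts by list are given over these 58 genes.

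**Figure D5:**
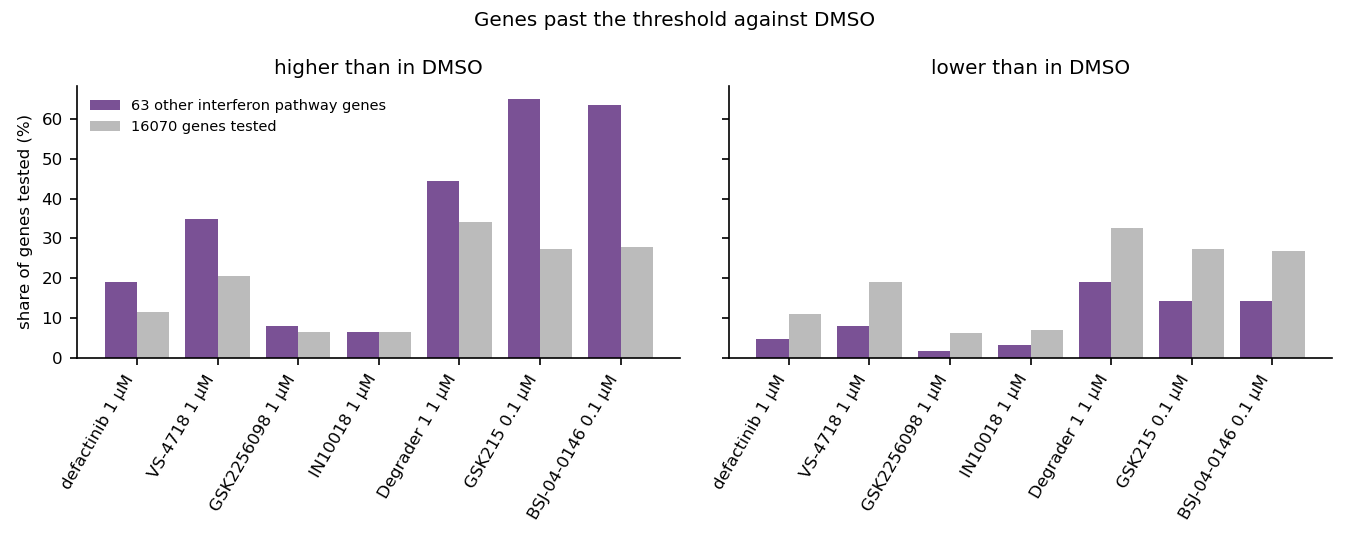
Share of the 63 other interferon pathway genes (purple) and of all 16070 genes tested (grey) called higher (left) or lower (right) than in DMSO, in percent, for each drug. With GSK215, 65.1% of the pathway genes were called higher beside 27.4% of all genes.

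The antiviral effectors were the largest list, with 27 genes. GSK215 raised 20 (74.1%, beside 30.2% of all genes at that level) and BSJ-04-0146 raised 19 (70.4% beside 31%). Each lowered 5 (18.5%, beside 33.3% and 32.8% of all genes). *Xaf1*, a pro-apoptotic interferon target, rose from 1.05 to 3.19 CPM with GSK215 (log2 fold change 1.58, SE 0.21, edgeR adjusted p = 3.05e-08), and *Gbp3*, a guanylate-binding protein, rose from 1.25 to 3.47 CPM with BSJ-04-0146 (1.46, SE 0.19, 2.66e-08). The exonuclease gene *Isg20* fell with GSK215 (−0.52, SE 0.086, 2.2e-06), and *Samhd1*, which depletes nucleotides, fell with BSJ-04-0146 (−0.39, SE 0.036, 4.62e-12), GSK215 (−0.31) and PROTAC FAK degrader 1 (−0.58) and rose with VS-4718 (0.11). Of the effectors, 9 rose and 4 fell with PROTAC FAK degrader 1, and 33.3% higher is below the 38.7% of all genes. *Rsad2*, which encodes viperin, rose from 0.783 to 3.26 CPM (2.05, SE 0.27, 1.01e-08), and *Irgm2*, an immunity-related GTPase, rose from 0.847 to 2.12 CPM (1.32, SE 0.23, 4.47e-06).

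VS-4718 raised 10 and lowered 3 effectors (37% higher beside 24.8% of all genes), and defactinib raised 5 and lowered 2 (18.5% beside 13.9%). *Gbp3* rose with both, by 0.79 (SE 0.20, edgeR adjusted p = 0.0013) and 0.98 (SE 0.20, 0.000225). *Rsad2* rose with defactinib (0.91, SE 0.29, 0.0192) and fell with VS-4718 (−0.88, SE 0.36, 0.0465). *Isg20* fell with VS-4718 (−0.68, SE 0.083, 1.36e-08) and defactinib (−0.29, SE 0.080, 0.00734), where *Ifit2*, a further IFIT gene, also fell (−0.20, SE 0.064, 0.0239), although *Ifit2* rose with GSK215 and BSJ-04-0146 (0.27 for each, 0.000379 and 0.000363). *Isg20* rose with IN10018 (0.51, SE 0.075, 6.32e-06). It also rose with PROTAC FAK degrader 1, from 22.2 to 49.1 CPM (1.15, SE 0.072, edgeR adjusted p = 2.73e-17), and fell with BSJ-04-0146 (−0.35, SE 0.085, 0.000511). The membrane protein gene *Ifitm3* fell with IN10018 (edgeR adjusted p = 0.00185), which raised 1 and lowered 1 effector in all (3.7% each, beside 7.97% and 8.56%), and it also fell with VS-4718 and all 3 PROTACs (−0.32 with GSK215). GSK2256098 raised 3 effectors (11.1%, near the 7.87% of all genes), among them *Lgals3bp* (0.45, SE 0.11, 0.00579) and the ADP-ribosyltransferase gene *Parp14* (0.38, SE 0.12, 0.0315), both of which also rose with GSK215 at 0.1 μM (1.38 and 1.43).

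Among the 3 genes of ISG15 conjugation, *Uba7*, the activating enzyme for ISG15, rose from 0.691 CPM with DMSO to 3.10 CPM with GSK215 (log2 fold change 2.15, SE 0.24, edgeR adjusted p = 5.59e-10), to 3.01 CPM with BSJ-04-0146 (2.11, SE 0.24, 1.01e-09) and to 1.29 CPM with VS-4718 (0.89, SE 0.26, 0.00569). *Isg15* itself was not called with any of these 3 drugs. *Ube2l6*, the conjugating enzyme, rose with 5 drugs, by 0.69 with PROTAC FAK degrader 1 (SE 0.094, edgeR adjusted p = 2.55e-08), 0.49 with BSJ-04-0146 (5.19e-05), 0.35 with defactinib (0.00551), 0.33 with GSK215 (0.00476) and 0.29 with IN10018 (0.0437). The third gene, *Herc6*, fell with PROTAC FAK degrader 1 (−0.25, SE 0.072, edgeR adjusted p = 0.00278). Thus 1 of the 3 rose and 1 fell with that drug, where 38.7% of all genes rose and 37.6% fell. GSK215 and BSJ-04-0146 each raised 2, where 30.2% and 31% of all genes rose.

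Of the 9 nucleic acid sensing genes, 7 rose and 2 fell with GSK215, 6 rose and 2 fell with BSJ-04-0146, and 3 rose with defactinib, where 30.2%, 31% and 13.9% of all genes rose. VS-4718 raised 2 and lowered 1, and 22.2% higher is near the 24.8% of all genes. With PROTAC FAK degrader 1, 3 rose and 4 fell (33.3% and 44.4%), near the 38.7% and 37.6% of all genes. *Tlr3*, the endosomal receptor for dsRNA, fell from 9.45 to 4.57 CPM (−1.05, SE 0.11, edgeR adjusted p = 1.2e-10), and *Tmem173*, which encodes STING, fell from 19.1 to 9.59 CPM (−0.99, SE 0.075, 8.4e-15). In the opposite direction, *Tlr3* rose with defactinib (0.26) and GSK215 (0.47), and *Tmem173* rose with defactinib (0.50), VS-4718 (0.19), GSK215 (0.30) and BSJ-04-0146 (0.37), all called in edgeR. *Mb21d1*, which encodes the DNA sensor cGAS, fell with PROTAC FAK degrader 1 (−0.93, SE 0.048, edgeR adjusted p = 7.28e-20), BSJ-04-0146 (−0.36, 1.89e-08), GSK215 (−0.26, 7.72e-06) and IN10018 (−0.13, 0.0381). Of the 7 receptor and kinase genes, 5 rose with VS-4718 (71.4% beside 24.8% of all genes), 5 with GSK215 (71.4% beside 30.2%), 4 with PROTAC FAK degrader 1 (57.1% beside 38.7%) and 3 with BSJ-04-0146 (42.9% beside 31%), and each of the 3 PROTACs lowered 1. Of the 8 negative regulators, 6 rose and 2 fell with PROTAC FAK degrader 1 (75% and 25%, beside 38.7% and 37.6%), 5 rose and 1 fell with BSJ-04-0146 (62.5% higher beside 31%), and 2 rose and 1 fell with GSK215, where 25% higher is near the 30.2% of all genes. *Ptpn2*, a phosphatase that acts on Janus kinases and STATs, fell with GSK215 (−0.49, SE 0.050, 8.25e-11), BSJ-04-0146 (−0.38, SE 0.050, 2.46e-08), VS-4718 (−0.21, SE 0.046, 0.000311) and GSK2256098 (−0.20, SE 0.047, 0.00252) and rose with PROTAC FAK degrader 1 (0.15, SE 0.046, 0.00399). The 4 STAT and IRF factors outside the members are too few to set against a share of all genes: 3 rose with PROTAC FAK degrader 1 and 2 with each of the other degraders.

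The gene most like each member over the 8 group means was sought by the root mean square difference of centred log2 CPM, among 10283 genes with a mean of at least 5 CPM. For *Stat2* it was *Cnpy2*, at 0.0532, and *Cnpy2* lies on the same strand of chromosome 10 from 128322459 to 128327553, 29610 bases beyond the end of *Stat2*. The nearest genes were *Terf2* for *Irf1* (0.0425), *Hacd2* for *Irf9* (0.0422), *Plcb1* for *Isg15* (0.0907), *Slc26a11* for *Ifit1* (0.13), *Sh3glb2* for *Bst2* (0.0422) and *Ankrd16* for *Ifih1* (0.0517). *Irf7* (*Fam213a*, 0.0587) and *Ifit3* (*Acvr1*, 0.0551) are compressed on this scale by its pseudocount of 0.5 CPM. These are descriptions over 8 means, with no test.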

How the data were processed

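The authors deposited raw read counts per Ensembl gene for 24 libraries of poly(A)-selected RNA. The submitters' processing notes name Trimmomatic 0.36, STAR 2.5.2b, featureCounts of Subread 1.5.2 and GRCm38. The annotation release and strand setting are not given in the sources used here, so how reads on exon bases shared with *Gm17334*, *Phrf1* or *Rnf31* were assigned is not known. A quasi-likelihood model with a term for each group was fitted to the counts by edgeR 4.0.16 under R 4.3.3, after TMM scaling and filterByExpr (minimum count 10). It left 16 residual degrees of freedom, and its tests (glmQLFTest) were two-sided. The 16070 genes that passed the filter were tested and p-values adjusted over all of them within each comparison. CPM used TMM-scaled library sizes, except the pooled values with Poisson intervals, which used library totals without TMM. Standard errors are the log2 fold change divided by the root of F. The fit was tested on simulated data.

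All 9 members are described. Of the other pathway genes, those named are the 2 that rose most and the 2 that fell most per drug, of called genes averaging 1 CPM or more. *Herc6* is named as well, to complete its list. Members, lists and tests were chosen with earlier results of these data known. No member failed the filter, and *Ifit3* was judged too low after its values were seen. Whether replicates came from separate cultures is not stated beyond the labels, so p-values measure the spread between these libraries. Alternatives were DESeq2 1.42.0, library totals, limma-trend (limma 3.58.1), no filter, the replicate block, the 6 libraries of a comparison alone and leaving out each library. For the 3 pairs, only DESeq2, library totals, the replicate block and leaving out each library were run. Coordinates are from GENCODE M21. Some genes of the lists are not reported here by name.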

Additional observations from a re-analysis of the deposited data

How the results depend on the processing

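No result that was called changed direction under any alternative tried. Library totals in place of TMM shifted the median of all genes by 0.122 with GSK215 and 0.108 with BSJ-04-0146 on the log2 scale, and by less than 0.1 elsewhere. For GSK215 against BSJ-04-0146 the count of members called went from 1 to 0 with library totals, DESeq2 and the replicate block, and with no filter that for GSK2256098 went from 1 to 0. With 1 library left out, the count was 2 to 4 for defactinib, 0 to 1 for GSK2256098, 0 to 1 for IN10018 and 0 to 1 for GSK215 against BSJ-04-0146. The cause of these losses was not tested. In the other comparisons the count stayed within 1.5 times under every alternative. Replicate numbers did not pair libraries, since 1 of 21 same-number correlations with DMSO exceeded 0.1 (r from −0.183 to 0.153) and 6 of 21 libraries lay nearest their own number; the replicate block changed no other call.

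Reversed signs occurred only in results that were not called. With library totals, *Bst2* with PROTAC FAK degrader 1 was 0.062, *Ifih1* in PROTAC FAK degrader 1 minus defactinib 0.048 and *Isg15* in GSK215 minus BSJ-04-0146 0.011, the last being 0.0028 with DESeq2 and 0.0042 with the replicate block. Leaving out 1 library gave log2 ranges that crossed 0 in 25 results. Against DMSO these were, for *Ifit3*, −0.081 to 1.03 (defactinib), −0.066 to 1.04 (VS-4718), −0.0018 to 1.1 (GSK2256098) and −0.20 to 0.90 (PROTAC FAK degrader 1), and for *Irf7*, −0.088 to 0.41 (VS-4718), −0.22 to 0.57 (GSK2256098) and −0.37 to 0.69 (IN10018). *Ifit1* ranged from −0.050 to 0.22 (VS-4718) and −0.21 to 0.0016 (GSK2256098), and *Ifih1* from −0.12 to 0.054 (VS-4718), −0.014 to 0.16 (GSK2256098) and −0.079 to 0.096 (IN10018). *Bst2* ranged from −0.0039 to 0.040 (GSK2256098), −0.073 to 0.0036 (IN10018) and −0.063 to 0.0095 (PROTAC FAK degrader 1), and *Isg15* from −0.14 to 0.027 (IN10018), −0.036 to 0.15 (GSK215) and −0.030 to 0.13 (BSJ-04-0146). Between compounds, VS-4718 minus defactinib ranged from −0.29 to 0.37 (*Ifit3*) and −0.52 to 0.062 (*Irf7*), PROTAC FAK degrader 1 minus defactinib from −0.24 to 0.024 (*Ifit3*) and −0.037 to 0.032 (*Ifih1*), and GSK215 minus BSJ-04-0146 from −0.22 to 0.27 (*Ifit3*), −0.046 to 0.17 (*Irf9*) and −0.082 to 0.11 (*Isg15*). *Irf7* and *Ifit3* had few counts, 2 to 22 and 1 to 11 per library, and the part of depth was not tested. With only 6 libraries in the fit, 11 member results could not be given because the filter removed the gene.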

Other observations

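Beyond the members and the genes named above, *Mx1*, an interferon-induced antiviral GTPase, stood out after its values were seen. It had 1, 1 and 0 counts with DMSO, 10, 15 and 22 with GSK215 and 15, 10 and 19 with BSJ-04-0146. Defactinib gave 10, 5 and 6 counts, VS-4718 7, 3 and 4, and PROTAC FAK degrader 1 4, 2 and 2. *Zbp1*, a sensor of Z-form nucleic acid, had 2, 1 and 3 counts with DMSO and 15, 12 and 12 with BSJ-04-0146. It had 8, 4 and 11 counts with defactinib, 3, 13 and 6 with GSK215, and 6, 2 and 4 with PROTAC FAK degrader 1. VS-4718 gave 6, 0 and 2 counts, GSK2256098 4, 2 and 5, and IN10018 1, 0 and 0. Both genes passed the filter on low counts through groups in which they were high, so these counts are given as a description, with no fold change or test.

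Some classical antiviral genes were nearly uncounted in every group. No library had more than 2 counts for *Oas1a*, *Oas2*, *Oas3* or *Oas1g*, which encode oligoadenylate synthetases, whereas the related *Oas1b* reached 8 counts and *Oasl1* 180.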
